A study of Homo sapiens and Mus musculus with 10 samples.

Results

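The nuclear receptor genes encode ligand-regulated and orphan transcription factors, and 45 of them were followed here among 19970 human protein-coding genes on the autosomes and chromosome X. They were taken by gene name from the GENCODE 44 human annotation, by a rule that uses no measured value although it was made with earlier results of these data known, and the 45 mouse genes of the same names were read from the GENCODE M21 annotation, which held 21755 protein-coding genes on those chromosomes. The data were short-read bulk ATAC-seq, in which the transposase Tn5 inserts adapters into accessible DNA, so that a peak marks an open stretch of chromatin and gives no transcript level. There were 10 libraries, 2 for each of 5 lines: GM12878, an Epstein-Barr virus-transformed B-lymphoblastoid line; HEK293T, an embryonic kidney-derived line; HFF1, a fibroblast line; K562, an erythroleukaemia line; and mouse embryonic stem cells (mESC). The human lines were grown in serum-containing medium (RPMI-1640 for GM12878 and K562, DMEM for HEK293T and HFF1), and the mESC without feeders in a supplemented medium with leukaemia inhibitory factor. No receptor ligand was listed as a treatment, and no line carried a labelled genetic change. The labels gave replicate numbers but not whether replicates were separate cultures, so any p-value measures only the spread between these libraries.

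Nuclear receptors share a zinc-finger DNA-binding domain and a ligand-binding domain. Steroid receptors bind palindromes of a hexamer as homodimers, the receptors for thyroid hormone, retinoic acid, vitamin D, oxysterols and fatty acids bind direct repeats of AGGTCA as heterodimers with retinoid X receptors, and several orphan receptors bind a single AGGTCA with a short 5′ extension as monomers. Expression of many members is tissue-restricted, whereas coregulators and chaperones that work with them are made in most cells.

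The deposited lists held 52137 to 127359 peaks per human library and 138349 and 142194 in mESC. The lowest background level recovered from the peak statistics, in reads, was 0.465 and 0.466 in HEK293T and between 1.71 and 2.43 in the other human libraries. HEK293T was thus the shallowest line, and its missing peaks are the least firm. Each list came from a single library. Defining markers followed the labels for most lines: all 5 B-cell markers had promoter peaks in GM12878 (MS4A1, CD79A and CD79B in no other human line), all 5 kidney-progenitor markers in HEK293T (PAX2 and LHX1 in no other), all 5 fibroblast markers in HFF1 (COL3A1 in no other) and all 5 pluripotency markers in mESC. In K562, 3 of 5 erythroid markers had promoter peaks (TAL1 and GATA1 in no other), and KLF1 and HBG1 had none in any human library.

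A few sequences show what the open chromatin of these genes looked like. Human coordinates are hg38, each sequence is written 5′ to 3′ on the strand of its receptor gene, and all but the RefSeq promoter are 151 bases centred on a peak's summit, except a 29-base stretch. The first 2 are peaks at start sites, with CpG dinucleotides in capitals, and were picked as a CpG-rich and a CpG-free stretch. They do not show the link of CpG density with openness given below. By the promoter call used below, ESRRG was open in 2 human lines and RARB, through other start sites, in 4. ESRRG (chr1:216723478-216723628, minus strand, centre at -81 bp from the nearest start site, where negative is upstream) held 9 CpGs, and the gene's canonical cluster of start sites was open in HEK293T and HFF1. RARB (chr3:25460833-25460983, plus strand, at -285 bp from a noncoding transcript's start) was open in GM12878 alone and held 0.
ESRRG, HEK293T: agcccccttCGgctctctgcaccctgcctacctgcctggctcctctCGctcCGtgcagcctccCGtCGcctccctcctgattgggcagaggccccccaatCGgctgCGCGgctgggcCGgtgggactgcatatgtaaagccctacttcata
RARB, GM12878: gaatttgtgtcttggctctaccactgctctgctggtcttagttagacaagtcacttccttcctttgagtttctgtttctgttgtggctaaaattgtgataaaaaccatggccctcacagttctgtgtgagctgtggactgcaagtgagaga

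The next set shows peaks found in a single human line, with matches to short motifs in capitals. Only sequences with a match are printed, and other regions named below, such as those of ESR1, RXRA and NR1H2, are left out. The set therefore does not show how often a motif occurs. The counts further below search a shorter stretch around the summit than most of these sequences cover. Some matches shown here, as in THRB in K562, lie outside that stretch. The motifs searched, on both strands, were the receptor hexamer AGGTCA and its extended forms, which contain it, and 3 motifs of other factors that were chosen with earlier results of these data known. TGACTCA is the core motif of AP-1. The core motif searched for GATA factors was AGATAA. For RUNX factors it was AACCACA. The NR0B2 sequence (chr1:26914176-26914326, minus strand) came from the strongest promoter peak of K562 replicate 1 and held the receptor hexamer, read on the other strand, and an AP-1 motif. The intronic regions were THRB in HFF1 (chr3:24220940-24221090, minus strand), NR6A1 in HFF1 (chr9:124574968-124575118, minus strand), PPARG in GM12878 (chr3:12395760-12395910, plus strand), THRB in K562 (chr3:24260227-24260377, minus strand), NR2C2 in K562 (chr3:15052809-15052959, plus strand) and RORA in GM12878 (chr15:60796003-60796153, minus strand). The 29 bases of NR2C2 in GM12878 (chr3:15050557-15050585, plus strand) lie in an NR2C2 intron and in an untranslated exon of the neighbouring gene MRPS25, and hold TCAAGGTCA.
NR0B2, K562: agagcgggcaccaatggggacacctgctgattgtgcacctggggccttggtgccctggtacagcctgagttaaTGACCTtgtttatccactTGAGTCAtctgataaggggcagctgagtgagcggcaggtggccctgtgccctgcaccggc
THRB, HFF1: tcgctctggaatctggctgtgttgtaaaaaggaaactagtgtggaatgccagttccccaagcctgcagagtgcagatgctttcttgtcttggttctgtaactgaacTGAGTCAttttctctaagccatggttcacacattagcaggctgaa
NR6A1, HFF1: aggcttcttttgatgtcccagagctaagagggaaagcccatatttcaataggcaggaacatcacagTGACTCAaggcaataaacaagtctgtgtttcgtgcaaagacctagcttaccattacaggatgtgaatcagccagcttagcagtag
PPARG, GM12878: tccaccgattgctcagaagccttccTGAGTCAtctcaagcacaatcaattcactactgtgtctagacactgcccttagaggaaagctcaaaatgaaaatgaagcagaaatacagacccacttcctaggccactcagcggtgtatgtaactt
THRB, K562: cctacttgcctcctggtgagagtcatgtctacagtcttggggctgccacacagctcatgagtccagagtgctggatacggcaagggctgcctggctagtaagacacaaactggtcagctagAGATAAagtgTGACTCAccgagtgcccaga
NR2C2, K562: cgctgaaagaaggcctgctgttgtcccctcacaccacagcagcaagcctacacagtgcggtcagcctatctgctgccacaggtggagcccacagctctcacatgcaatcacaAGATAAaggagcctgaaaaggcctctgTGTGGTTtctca
RORA, GM12878: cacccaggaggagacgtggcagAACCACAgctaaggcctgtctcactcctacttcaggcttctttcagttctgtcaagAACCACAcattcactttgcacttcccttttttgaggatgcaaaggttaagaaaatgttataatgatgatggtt
NR2C2, GM12878: gcaggtggtaTCAAGGTCAagacttcagt

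The last sequence is the 250 bases upstream of the RefSeq start of PPARG (GRCh38.p14, chr3:12287118-12287367, plus strand), shown because it was the only RefSeq promoter among the members with 2 copies of AGGTCA, the second within AAAGGTCA.
PPARG promoter: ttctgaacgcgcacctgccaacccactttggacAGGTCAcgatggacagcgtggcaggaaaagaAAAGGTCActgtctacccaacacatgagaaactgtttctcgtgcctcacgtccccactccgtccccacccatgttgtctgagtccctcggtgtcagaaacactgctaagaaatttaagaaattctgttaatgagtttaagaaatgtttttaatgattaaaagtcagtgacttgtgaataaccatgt

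Most receptor genes had an open promoter, at any annotated start, in every human line. A promoter was called in a line when a peak in both replicates touched the 1 kb either side of any annotated start site. By this call 28 of the 45 (62.2%) were open in all 4 human lines, beside 59.7% of all protein-coding genes, and 5 (11.1%) were open in none, beside 17.1%. Exactly 1 line was open for 2 members (4.44%, beside 7.62%), exactly 2 for 5 (11.1%, beside 6.85%) and exactly 3 for 5 (11.1%, beside 8.76%). The 28 open everywhere, each with a peak in all 8 human libraries, held the 3 retinoic acid receptors, the 4 clock-linked receptors (NR1D1, NR1D2, RORA, RORB), the oxysterol receptors NR1H2 and NR1H3, the testicular receptors NR2C1 and NR2C2, the 3 immediate-early NR4A genes, the glucocorticoid receptor NR3C1 and the mineralocorticoid receptor NR3C2. All 28 were also open in both mESC libraries.

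By line, 33 members (73.3%) were open in GM12878, beside 71.9% of all genes, 33 (73.3%) in HEK293T beside 67.8%, 39 (86.7%) in HFF1 beside 76.2% and 34 (75.6%) in K562 beside 70.4%. The shares thus lay at or above the background of each line, and HFF1 had the most. HFF1 also had the longest human lists, and when the read pileups of all libraries were scaled down to the shallowest human library, the counts were 31 in GM12878, 33 in HEK293T, 32 in HFF1 and 32 in K562, beside 68.8%, 67.8%, 70.3% and 65.2% of all genes. HFF1 no longer had the most members. No pair of lines was tested, since 2 libraries against 2 cannot reach the threshold in an exact test.

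**Figure D1:**
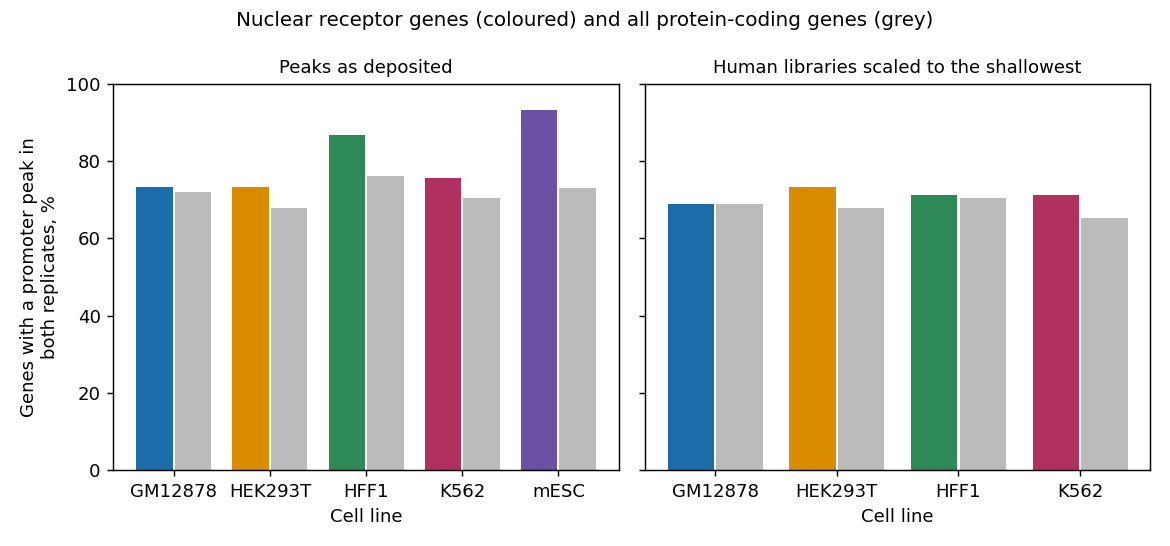
Percent of nuclear receptor genes (coloured bars) and of all protein-coding genes (grey bars) with a promoter peak in both replicates of each line, as deposited (left) and after scaling the human libraries to the shallowest (right, without mESC). HFF1 falls from 39 to 32 members of 45 with the scaling, while HEK293T stays at 33.

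**Figure D2:**
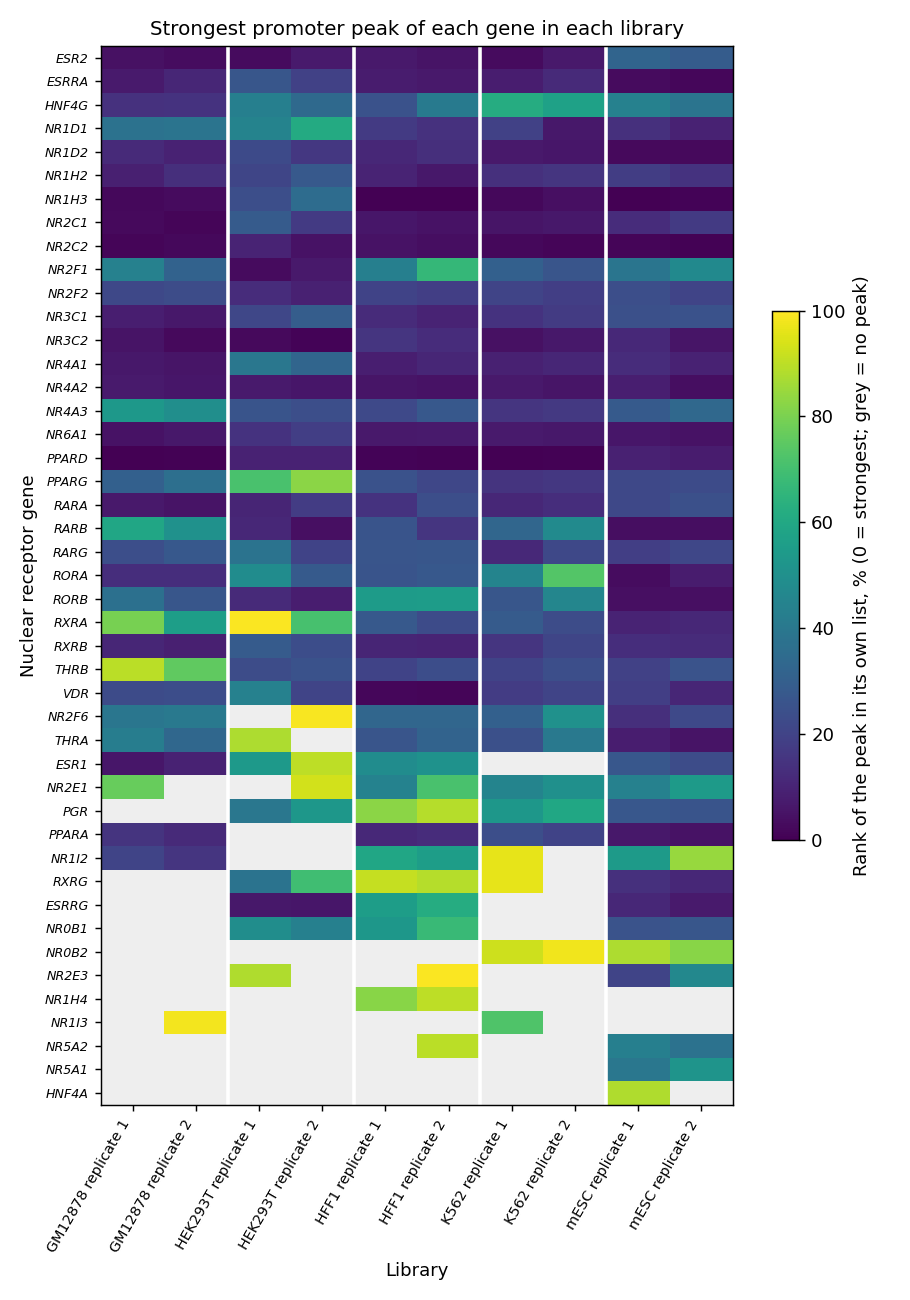
Rank of each gene's strongest promoter peak within the list of its own library, in percent of the list, where 0 is the strongest and grey is no peak; rows are genes ordered by the number of human libraries with a peak and columns are libraries. The top 28 rows are filled in all 8 human libraries, and grey cells gather in rows such as RXRG, ESRRG and NR0B1.

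PPARD, NR1H3 and NR2C2 had some of the strongest promoter peaks. PPARD encodes the fatty acid receptor PPARdelta, and its promoter peak ranked within the top 0.0878% of the list in K562 replicate 1 and 0.203% in GM12878 replicate 1. In HEK293T it ranked within the top 9.45% and 9.51%. NR1H3, which encodes the oxysterol receptor LXRalpha, ranked within the top 0.0118% and 0.127% in the HFF1 replicates, with fold enrichments over background of 19.3 and 17.3. These folds and ranks are the authors' peak values, describe a peak within its own list and are not compared between lists. NR2C2, which encodes the orphan receptor TR4, ranked within the top 9.82% of every human list.

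The 17 members that varied or lacked a peak are described by role. Among the thyroid and fatty acid receptors, THRA lacked a peak in HEK293T replicate 2 only, and its window also holds a start of MED24. PPARA, which drives fatty acid oxidation genes in liver, had folds of 7.58 and 8.28 in GM12878, 7.54 and 7.62 in HFF1 and 8.70 and 9.64 in K562, and no peak in either HEK293T library. The 3 lines with a PPARA peak were the same after the scaling to the shallowest library.

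The bile acid and xenobiotic receptors, which act mainly in liver and intestine, were each open in at most 2 human lines. NR1H4, the bile acid receptor FXR, had a peak in HFF1 alone (chr12:100473730-100473951 and chr12:100473674-100473879 in replicates 1 and 2), with folds of 5.03 and 4.47 and pileups of 17 and 15 reads. NR1I2, the xenobiotic receptor PXR, was open in GM12878 (folds of 9.24 and 10.6) and HFF1 (4.98 and 5.23), both at a noncoding transcript's start. It also had a peak in K562 replicate 1 (4.05) and none in HEK293T. The K562 peak lay at another cluster of start sites, where GM12878 had folds of 5.28 and 5.89 and HFF1 had no peak. The canonical start of NR1I2 had no peak in any human library. NR1I3, the receptor CAR, had a peak in GM12878 replicate 2 (fold 3.96) and K562 replicate 1 (5.12), at different places, and thus in both replicates of no line. NR1H4 and NR1I3 were also without a peak in mESC.

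In the NR2 subfamily, RXRG, the retinoid X receptor with the most restricted expression, had folds of 10.0 and 7.07 in HEK293T, 3.95 and 4.31 in HFF1 and 3.99 in K562 replicate 1, and no peak in GM12878. After the scaling only the HEK293T peaks of RXRG were left. RXRA and RXRB, the more widely expressed partners, were open in all 8 libraries. HNF4A, a regulator of liver and gut genes, had no promoter peak in any human library, whereas its paralogue HNF4G was open in all 8. NR2E1, a neural stem cell factor, was called in HFF1 and K562, with the strongest peaks at different start sites: folds of 5.74 and 4.26 at a coding start in HFF1, and 6.94 and 6.54 at a noncoding transcript's start in K562. It also had single peaks in GM12878 replicate 1 and HEK293T replicate 2. NR2E3, a photoreceptor factor, had a peak in HEK293T replicate 1 and HFF1 replicate 2 only, and NR2F6 lacked a peak in HEK293T replicate 1 only.

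Among the steroid and related receptors, the oestrogen receptor ESR1 had no K562 peak, its paralogue ESR2 was open in all 8 libraries, and the progesterone receptor PGR had no GM12878 peak. PGR had folds of 7.61 and 6.71 in HEK293T, 4.11 and 3.96 in HFF1 and 4.72 and 4.53 in K562. ESRRG, an orphan receptor of oxidative tissues, had folds of 13.5 and 14.4 in HEK293T, within the top 6.32% and 6.09% of those lists, and 6.37 and 6.11 in HFF1, at another start site and within the top 55.7% and 61.9%. GM12878 and K562 had no ESRRG peak. ESRRA was open in all 8 libraries.

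The members without a classical DNA-binding domain and the NR5 genes were open in few human libraries. NR0B1 (DAX1) was open in HEK293T (folds of 7.42 and 8.03) and HFF1 (6.79 and 5.69) and in no GM12878 or K562 library, also after the scaling. NR0B2 (SHP), a repressor induced by FXR in liver, had peaks in K562 alone, chr1:26914140-26914312 in replicate 1 with a fold of 3.38 and chr1:26914389-26914575 in replicate 2 with a fold of 3.28. These strongest peaks of the replicates did not overlap each other. They were weak peaks, ranked at 92.5% and 97.8% of the way down their lists. NR5A1 (SF1), the steroidogenic factor of adrenal and gonad, had no peak in any human library, and NR5A2 (LRH1) had 1 weak peak, in HFF1 replicate 2 (fold 3.84).

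The line-restricted calls were weak ones. NR1H4 and NR0B2 (4.44% of members, beside 4.91% of all genes) had a peak in both replicates of 1 line and in no library of another. Neither call was left after scaling to the shallowest library, where RXRG in HEK293T was the only such member, nor with 50000 peaks per library, where ESRRG, NR0B1 and RXRG in HEK293T and NR1I2 in GM12878 were. Members with no peak in any human library were HNF4A and NR5A1 (4.44%, beside 14.7%).

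In mESC 42 of the 45 mouse genes (93.3%) had a promoter peak in both libraries, beside 73.1% of mouse protein-coding genes. With 50000 peaks per library 34 did (75.6%, beside 61.8%). The 3 others were Nr1h4 and Nr1i3, with none, and Hnf4a, with a peak in replicate 1 only (fold 3.91). Nr5a1, Nr5a2 and Nr2e3, whose human counterparts were called in no line, were open in both mESC libraries, with folds of 4.60 and 4.01, 3.71 and 3.80, and 6.98 and 4.40, the last pair at different places. With 50000 peaks per library none of these 3 had a peak in both mESC libraries. Nr0b1 had folds of 6.12 and 5.82. Genome, annotation and list length all differed between the mouse and human sets, so these shares are set side by side and were not tested.

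Openness across lines went with CpG density. The CpG observed-to-expected ratio within 500 bp of the canonical start had a median of 0.781 in the 28 members open in all 4 lines, 0.723 in the 12 open in 1 to 3 and 0.254 in the 5 open in none. The same medians over all protein-coding genes were 0.787, 0.603 and 0.248. The members with the lowest ratios that were open in all 4 lines were HNF4G (0.0329), NR1H3 (0.208) and RARA (0.294). The ratio was taken at the canonical start, whereas a peak at any start counted as open. With canonical starts alone, HNF4G and RARA were called in 1 line and NR1H3 in 2. Of the members called in no line, NR5A2 had the lowest ratio (0.0684) and HNF4A the highest (0.368).

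Lines also differed in which start sites of a receptor gene were open. Members had a median of 8.00 annotated start sites, beside 5.00 over all genes, and overlapping 1 kb windows were merged into 156 clusters. Of these, 32 had a peak in all 8 human libraries and 69 in none. HFF1 had 64 clusters open in both replicates, GM12878 55, K562 51 and HEK293T 41, and after the scaling these were 49, 50, 45 and 41. Of the 40 members with more than 1 cluster, 25 (62.5%) had open clusters that differed between lines, beside 53.6% of all such genes, and 25 (62.5%) did after the scaling, beside 48.4%. Among genes with 3 or more clusters, 19 of 24 members (79.2%) differed, beside 62.0%, and 20 of 24 (83.3%) after the scaling, beside 56.4%. Members in that class had a median of 4.50 clusters and all genes 4.00, and no test was made of these shares. A cluster without a peak in a line counted as a difference, so the counts are not of alternative start sites alone. NR1H4, RXRG and PGR, for instance, had peaks at 1 cluster only. At THRA, RARG, NR1H2 and NR1H3, as deposited, only HEK293T, the shallowest line, differed.

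RORA, the clock-linked receptor RORalpha, had a peak at the canonical cluster of its long transcripts in HEK293T (folds of 6.64 and 6.79) and HFF1 (5.78 and 5.57), and none in GM12878 or K562. A cluster 636.6 kb downstream, which starts shorter transcripts, was open in all 8 libraries, with folds between 6.04 and 8.82. GM12878 and K562 thus differed from HEK293T and HFF1 at the long transcripts' start in every replicate, also after the scaling, which removed the downstream peak of K562 replicate 2.

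RARB, the retinoic acid receptor beta gene, was open at its canonical cluster in HEK293T (folds of 11.7 and 14.2), HFF1 (6.43 and 7.90) and K562 (7.98 and 6.74). Its far upstream cluster, at -598.6 kb, was open in the same 6 libraries. GM12878 had neither. It instead had a peak at a noncoding transcript's start 33.3 kb downstream (8.08 and 9.51), the CpG-free sequence shown above, which no other line had. A still farther cluster, at -740.0 kb, had a peak in GM12878 replicate 2 and HFF1 replicate 1 only. So RARB counted as open in all 4 lines although no cluster was open in both replicates of GM12878 and of another line.

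NR3C1, the glucocorticoid receptor, had its main cluster open in all 8 libraries. A second cluster at -33.9 kb, which starts 2 coding transcripts, was open in GM12878 alone, with folds of 10.1 and 10.7 and pileups of 106 and 113 reads. Both patterns were the same after the scaling. HNF4G likewise had 1 cluster open in all 8 libraries and its canonical cluster in GM12878 alone (folds of 7.03 and 9.17).

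PPARG, the fat cell regulator, had a peak at its canonical cluster in 7 human libraries, all but K562 replicate 2. A cluster 21.5 kb downstream was open in GM12878 (9.67 and 8.91) and in HFF1 replicate 1 (4.99), and a noncoding transcript's start 117.9 kb downstream in K562 alone (11.2 and 11.4). PPARA had 2 further clusters, 20.8 and 26.2 kb downstream, open in both HFF1 libraries, and the first also in K562 replicate 1. RARA had its canonical cluster open in GM12878 (5.07 and 8.08) and K562 replicate 2 (4.57), and 2 other coding clusters open in all 8 libraries.

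ESR1 was open at a cluster at -116.7 kb in GM12878 (14.8 and 13.4), HFF1 (6.93 and 6.90) and HEK293T replicate 2 (5.76). Its canonical cluster was open in both replicates of HFF1 alone (4.61 and 4.49), with single peaks in GM12878 replicate 2 and HEK293T replicate 1, and the HFF1 peaks were lost after the scaling. The 2 HEK293T replicates thus had their ESR1 peak at different start sites. ESRRG was open at its canonical cluster in HEK293T and HFF1, and HFF1 had 2 further clusters, at -366.3 and -353.6 kb, that no other line had. After the scaling the canonical ESRRG cluster was open in HEK293T alone. VDR, the vitamin D receptor, was open at its canonical cluster in all 8 libraries, and a cluster 22.1 kb downstream was open in GM12878 (4.98 and 5.19) and HFF1 (11.5 and 11.7).

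**Figure D3:**
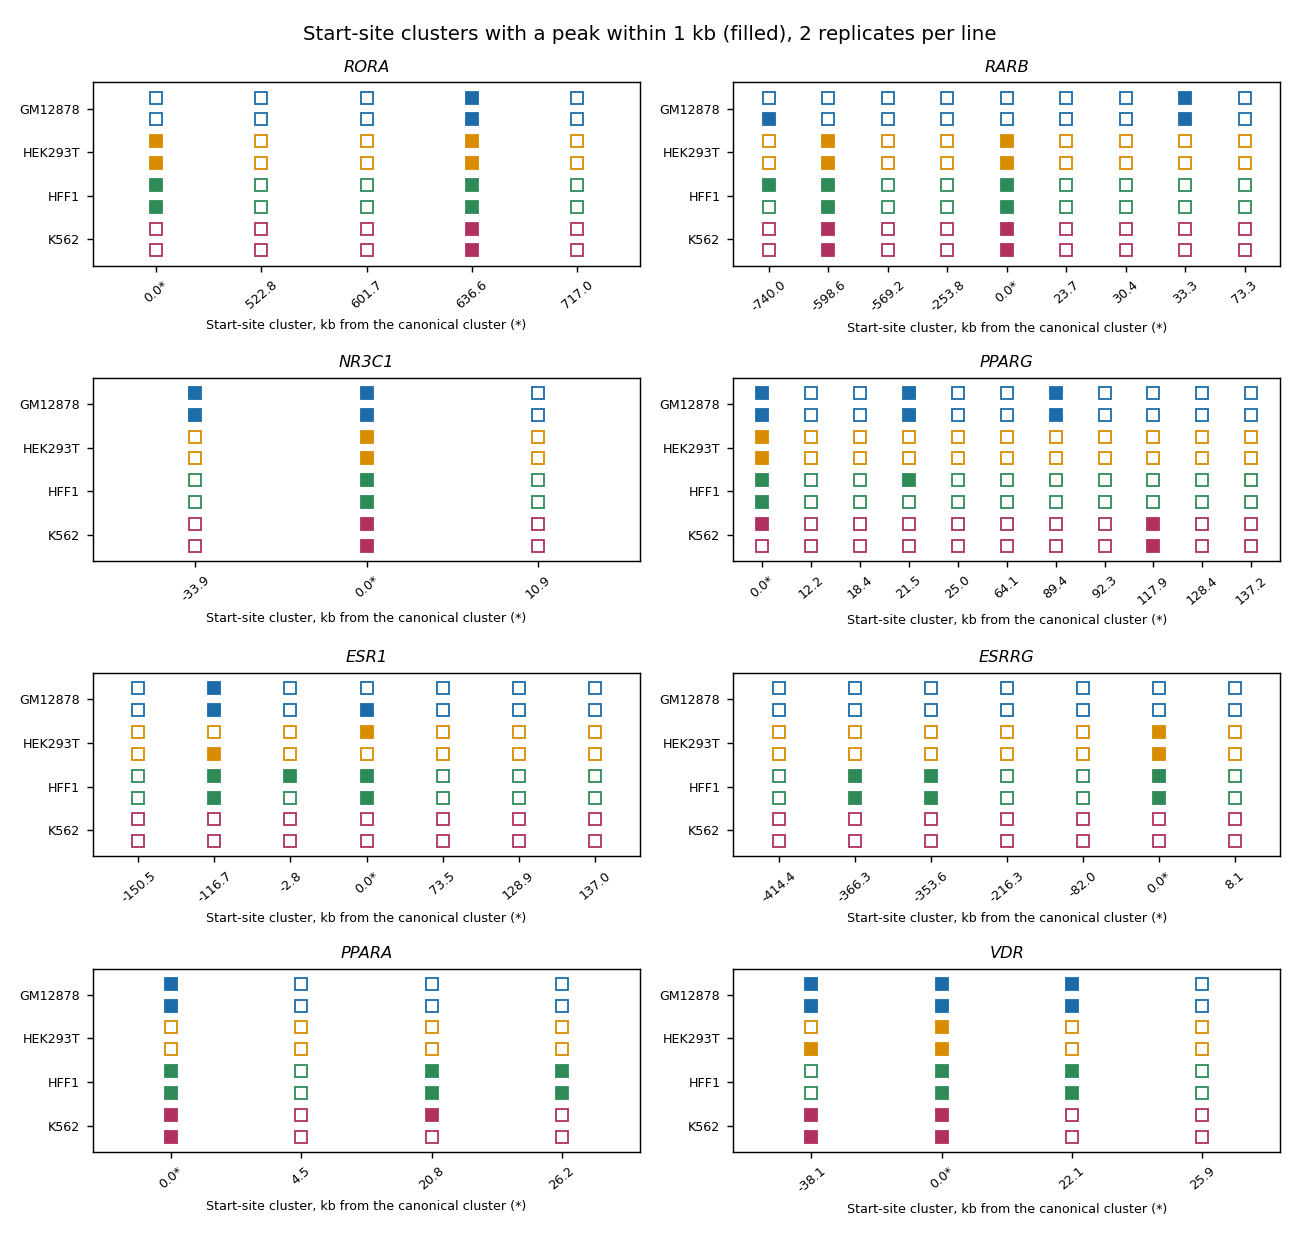
Start-site clusters of 8 receptor genes, placed in the order of transcription with their distance from the canonical cluster in kb; each square is a library (2 rows per line), filled where a peak lies within 1 kb of a start site of the cluster. RORA has its canonical cluster filled in HEK293T and HFF1 and a second cluster, 636.6 kb away, filled in all 8 libraries; NR3C1 has a cluster at -33.9 kb filled in GM12878 alone.

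Peaks inside the genes are given first as counted, from lists of unequal length, and the test follows further below. A gene-body peak overlapped a gene but none of its start-site windows. The members had 91 and 92 such peaks in the HEK293T replicates, 134 and 116 in K562, 208 and 219 in GM12878 and 295 and 277 in HFF1. No peak of this kind was found in 7 members: ESRRA, NR0B1, NR0B2, NR1I3, NR2C1, NR2F1 and RXRB.

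RARB had 7 and 8 gene-body peaks in GM12878, 10 and 12 in HEK293T, 46 and 49 in HFF1 and 11 and 11 in K562. The HFF1 libraries lay above all others. RORA had 39 and 42 in GM12878, 44 and 40 in HFF1, 5 and 4 in HEK293T and 6 and 6 in K562, so GM12878 and HFF1 overlapped each other and lay far above the other lines. THRB, the thyroid hormone receptor beta gene, had 6 and 6 in GM12878, 7 and 5 in HEK293T, 24 and 24 in HFF1 and 17 and 15 in K562.

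ESR1 had 17 and 17 in GM12878, 8 and 9 in HEK293T, 23 and 24 in HFF1 and 10 and 7 in K562, where HEK293T and K562 overlapped. NR6A1, the germ cell nuclear factor gene, had 10 and 11, 5 and 5, 27 and 21 and 9 and 9 in the same order. ESRRG had 10 and 11, 9 and 9, 14 and 11 and 1 and 0, with K562 below all other lines. NR5A2 had 12 and 15, 5 and 5, 7 and 8 and 5 and 6, so GM12878 was highest at a gene with no GM12878 promoter peak.

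RXRA had 9 and 8, 3 and 3, 8 and 8 and 8 and 7, PPARD 6 and 5, 2 and 2, 13 and 12 and 6 and 4, and ESR2 10 and 9, 2 and 3, 8 and 8 and 3 and 4. PPARG had 5 and 7 in GM12878 and 14 and 12 in HFF1, and none in HEK293T or K562. NR3C2 had 7 and 11 in HEK293T, the shallowest line, beside 3 and 4 in GM12878, 9 and 5 in HFF1 and 0 and 1 in K562, so HEK293T overlapped HFF1.

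After the scaling to the shallowest library RARB had 27 and 26 peaks in HFF1 and 4 to 12 in the other lines, RORA had 34 and 34 in GM12878, 23 and 23 in HFF1 and 3 to 5 elsewhere, and NR3C2 had 7 and 11 in HEK293T and 0 to 2 elsewhere. At matched background, then, HFF1 stood highest at RARB, GM12878 and HFF1 at RORA, and HEK293T at NR3C2. The scaled lists still differed in length, from 45570 to 79298 peaks. With 50000 peaks per library RARB had 14 and 9 in HFF1 and 10 and 12 in HEK293T, so HFF1 no longer stood apart. At that length RORA had 20 and 20 in GM12878 and 10 and 12 in HFF1, and NR3C2 had 7 and 9 in HEK293T.

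The share of each library's peaks that fell in a gene body was compared between the 4 lines with an exact permutation test over all ways of pairing the 8 libraries. Of 32 members with at least 8 such peaks, 10 (31.2%) passed an adjusted p of 0.05, beside 30.8% of 8666 genes tested, a share near the background. The 10 were THRB, RARB, NR1H4, RXRA, NR2C2, NR2F2, NR2F6, NR3C2, NR4A1 and NR6A1, each with an exact permutation p of 0.00952, the smallest the test can give, and an adjusted p of 0.0309. RORA had an exact permutation p of 0.0190 (adjusted p 0.0507), just outside the threshold. At NR2F2 (1 or 2 peaks in every library), NR2F6 (1 or 2) and NR4A1 (2 to 4) the numbers hardly differed between lines, while the list lengths that divide them did. With the number of peaks in place of the share, 0 members and 0 genes passed (14 members and 4031 genes at an unadjusted exact p under 0.05), and with 50000 peaks per library 0 and 0 did (9 and 1978). Without HEK293T replicate 1, 3 members passed (THRB, RARB and NR3C2), or 9.68% beside 22.8% of genes. Without GM12878 replicate 1 there were 5 (16.7%, beside 19.2%), and without HEK293T replicate 2 there were 6 (19.4%, beside 22.5%). By share of the list THRB and RXRA were highest in K562 and ESRRG in HEK293T, whereas by number THRB and ESRRG were highest in HFF1 and RXRA in GM12878. After the scaling 11 of 29 members passed (37.9%, beside 39.2% of genes), among them RORA, ESR1 and ESRRG.

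**Figure D4:**
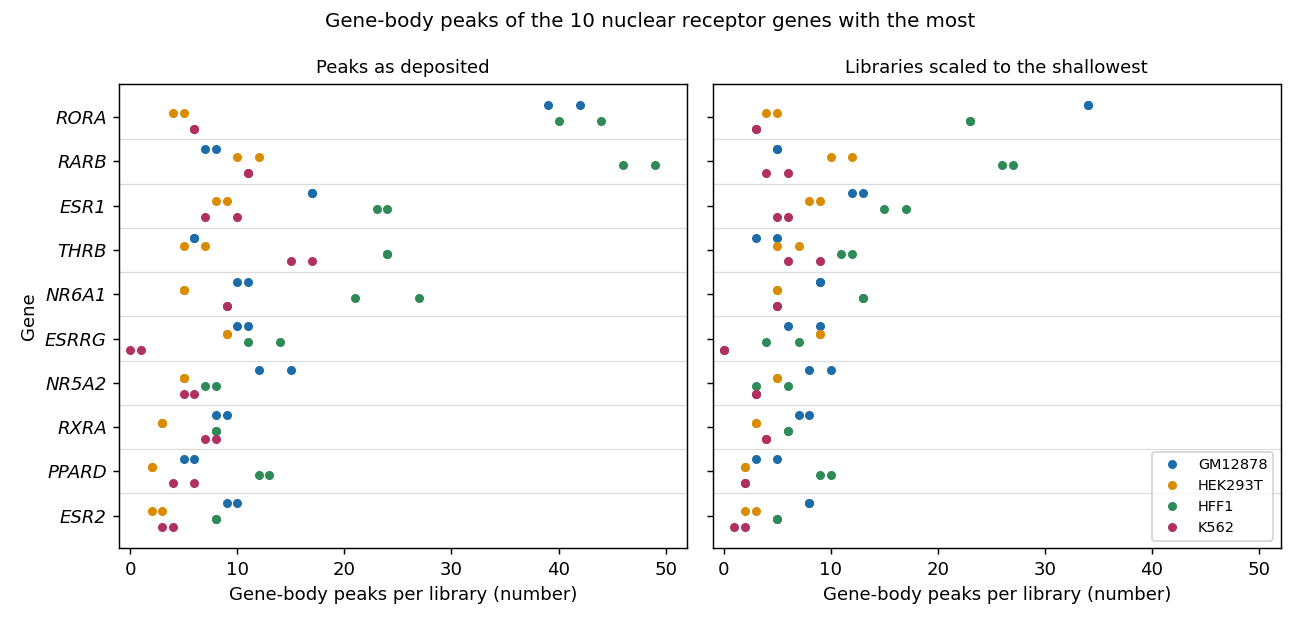
Gene-body peaks per library at the 10 receptor genes with the most, as deposited (left) and after scaling the libraries to the shallowest (right); each point is a library and colours are lines. RARB stands highest in HFF1 in both panels (46 and 49, then 27 and 26), and RORA in GM12878 and HFF1.

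Gene-body peaks of the 8 libraries were merged into 570 regions in members, of which 399 were called in both replicates of a line. Of these, 295 (73.9%) were called in a single line, beside 74.3% over all genes, and 22 (5.51%) in all 4, beside 6.13%. In HFF1, 147 of 235 called regions (62.6%) had no peak in any library of another line, beside 58.8% over all genes. In GM12878 92 of 180 did (51.1%, beside 50.0%), in K562 24 of 94 (25.5%, beside 32.0%) and in HEK293T 11 of 70 (15.7%, beside 13.1%). All 4 shares were near their background.

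By gene, RARB held 33 of the HFF1-specific regions, RORA 25, THRB 16, ESR1 13, PPARG 11 and NR6A1 10. RORA held 26 of the GM12878-specific regions. NR3C2 held 6 of the 11 HEK293T-specific regions, and ESR1, ESRRG and PGR the other 5. PPARG had 16 called regions, 5 in GM12878 and 11 in HFF1, and none was shared, although both lines were open at its canonical start.

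The line-specific regions with the best ranks lay in introns, except an HNF4G region in a coding exon. THRB held regions specific to different lines: chr3:24220718-24221556 in HFF1 (folds of 15.6 and 14.8, within the top 2.31% and 6.41% of the lists) and chr3:24259931-24260609 in K562 (9.26 and 10.6). RORA had chr15:60795658-60796390 in GM12878 (14.6 and 15.4) and ESR1 chr6:151668702-151669315 in HFF1 (15.0 and 16.1). PPARG had chr3:12395204-12395974 in GM12878 (15.5 and 13.7) and RXRA chr9:134338446-134339169 in K562 (7.97 and 8.79). NR6A1 had 2 in HFF1, chr9:124574525-124575441 (13.5 and 14.3) and chr9:124652387-124653046 (15.6 and 14.4). NR2C2 had a GM12878 region (chr3:15050393-15050738, 10.1 and 11.1) and a K562 region (chr3:15052497-15053230, 9.29 and 9.75), both also within MRPS25, and NR1H2 a K562 region (chr19:50374723-50375225, 4.71 and 5.40).

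The motifs of AP-1, RUNX and GATA factors were counted in the line-specific regions, with no test. The summit and 50 bases either side held TGACTCA in 26 of 147 HFF1-specific regions of members (17.7%), beside 19.0% of all such regions in genes and 2.73% for the letters reversed. AACCACA was in 11 of 92 GM12878-specific regions, beside 7.80% of all such regions (reversed 1.52%), and AGATAA in 2 of 24 K562-specific regions (8.33%), beside 22.9% (reversed 2.75%). Among members AGATAA was no more frequent in K562 than in GM12878, with 9 of 92 there (9.78%, beside 4.55%). In HFF1 it was in 9 of 147 (6.12%, beside 4.32%). TGACTCA was also in 7 of 92 in GM12878 (7.61%, beside 8.27%) and 2 of 24 in K562 (8.33%, beside 9.80%). AACCACA was in 4 of 147 in HFF1 (2.72%, beside 4.74%) and 1 of 24 in K562 (4.17%, beside 2.75%). The receptor hexamer AGGTCA was in 10 of the HFF1-specific regions (6.80%, beside 5.65%), 7 of the GM12878-specific (7.61%, beside 7.18%) and 1 of the K562-specific (4.17%, beside 10.6%). The longer TCAAGGTCA was in 2 of the GM12878-specific regions (2.17%, beside 0.203%). A match is a description of letters and says nothing of which factor bound.

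In RefSeq promoters, found for 40 of the 45 members, the 300 bases around the start held AGGTCA in 7 (17.5%), beside 11.5% of 15316 promoters and 13.1% for the reversed letters. The 7 were NR0B1, NR1H3, NR1H4, NR5A2, PPARG, RARA and RXRG. AAAGGTCA was in PPARG alone (2.50%, beside 0.979%). No member promoter held a repeat of the hexamer with 1, 2, 4 or 5 bases between, nor a receptor palindrome.

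The elements that the receptors bind were also counted over all peaks away from start sites, 33966 to 101451 per human library, as the share with a match in the summit and 50 bases either side. AGGTCA was in 7.77% ± 0.0987 of K562 peaks (SD, n = 2), 6.78% ± 0.0553 in GM12878, 5.77% ± 0.116 in HEK293T and 5.49% ± 0.00311 in HFF1. The reversed letters gave 6.25%, 5.49%, 6.99% and 7.16%, so AGGTCA lay above its reversed control in K562 and GM12878 and below it in HEK293T and HFF1. The 4 lines differed with an exact permutation p of 0.00952 (adjusted p 0.0190 over 10 elements), and no replicate of a line overlapped another line. The reversed letters also separated the 4 lines without overlap of replicates, though in another order. The separation of the lines and its p are therefore not particular to the receptor hexamer. AAAGGTCA, the hexamer after AA, was in 0.602% ± 0.0137 in GM12878, 0.464% ± 0.0177 in K562, 0.387% ± 0.0130 in HFF1 and 0.270% ± 0.0233 in HEK293T (exact permutation p 0.00952, adjusted 0.0190). However, its reversed control was higher in each line, at 0.619%, 0.496%, 0.876% and 0.553%, and it too separated the lines without overlap of replicates.

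TCAAGGTCA, the monomer site of oestrogen-related and NR5A receptors, was in 0.914% ± 0.00866 of mESC peaks (1035 and 1080 peaks), where its reversed control was 0.160%. In the human lines it was in 0.161% ± 0.00543 in GM12878, 0.136% ± 0.00531 in K562, 0.135% ± 0.0250 in HEK293T and 0.0905% ± 0.00587 in HFF1, with reversed controls of 0.0927% to 0.133%. The difference between the human lines did not pass (exact permutation p 0.0571, adjusted 0.0816). mESC, from another genome, stood beside the human lines with no test. The direct repeat with 1 base between, AGGTCANAGGTCA, was in 35 and 40 mESC peaks and in 0 to 5 peaks per human library, and its adjusted p of 0.0190 between human lines by the exact permutation test rests on those few peaks. The inverted repeat of AGGTCA with 3 bases between was in 0 to 2 peaks per human library, and the steroid palindrome, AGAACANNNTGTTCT, in 0 to 4.

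**Figure D5:**
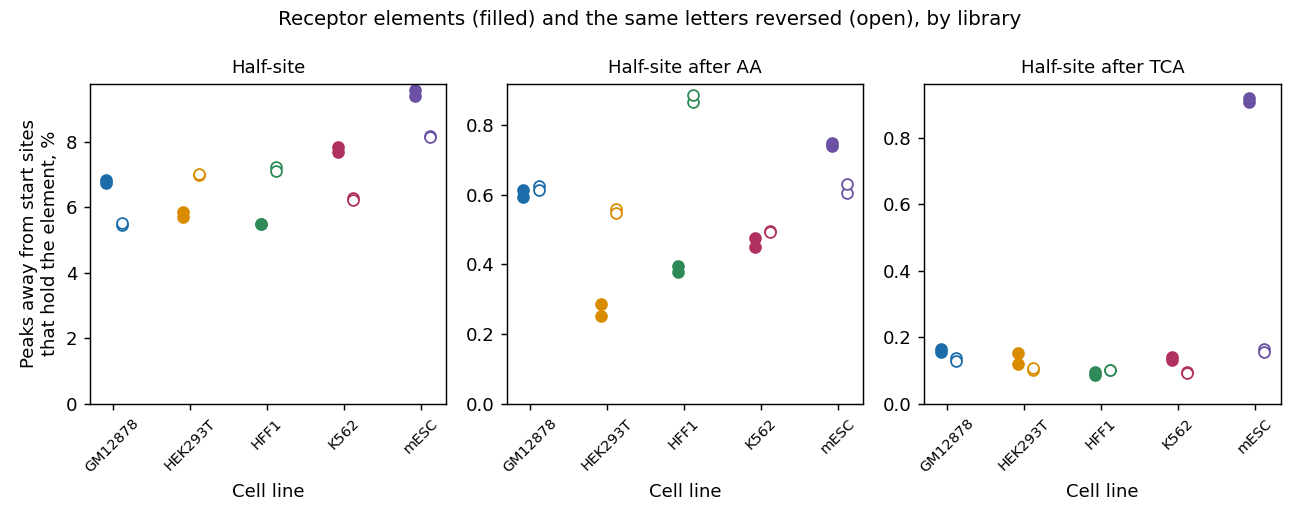
Percent of peaks away from start sites with a receptor element (filled points) and with the same letters reversed (open points), per library, for the hexamer alone and after AA or TCA. K562 and GM12878 lie above their reversed controls for the hexamer, and mESC stands at 0.914% beside 0.160% for the hexamer after TCA.

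The genes that work with the receptors were read from lists chosen with earlier results known. Of 13 coregulators, 12 had a promoter peak in both replicates of all 4 human lines, and the other was PPARGC1A, a coactivator of oxidative metabolism, called in HEK293T and HFF1. All 7 chaperones of steroid receptors were open in all 4 lines. Of 20 enzymes that make, move or break down ligands, 3 were open in all 4 lines (DHRS3, RDH10 and ALDH1A2, of retinoid metabolism). By line, 17 were open in HFF1, 11 in GM12878, 8 in K562 and 6 in HEK293T. This was also the order of list length, and these enzymes were not counted after the scaling. CYP7A1, the first enzyme of bile acid synthesis, and CYP26C1, a retinoic acid hydroxylase, had no peak in any human library. Of 15 target genes, 9 were open in all 4 lines, among them the glucocorticoid-responsive TSC22D3, PER1 and DUSP1. FABP4, a PPARG target of fat cells, was open in HFF1 alone and TFF1, an oestrogen-responsive gene, in GM12878 alone. The background shares of each line are those given above, and these lists were not tested.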

How the data were processed

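Bulk ATAC-seq of 10 libraries was deposited as 1 peak list per library in narrowPeak form. The submitters' processing notes name cutadapt 3.2, Bowtie2 2.4.2, Picard and MACS2 2.2.7.1 and the builds hg38 and mm10, and their roles and settings are not given in the sources used here. As deposited by the authors, each peak carried a score (10 times its -log10 q, as a whole number), the fold of its summit over local background, a ratio within the library, and the -log10 p and -log10 q of the summit. No reads or signal were used, and no list was normalized to another.

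The 45 members, the related gene lists and the motifs were chosen with earlier results of these data known. Start sites came from GENCODE 44 and M21, a peak counted with an overlap of at least 1 bp with the 1 kb either side of a start, and windows that touched were merged into clusters. Some windows also held another coding gene's start (THRA with MED24, NR1D2 with NKIRAS1, NR1H3 with ACP2, RXRB with SLC39A7), and THRA and NR1D1 overlap at their 3′ ends. A peak's pileup and background were recovered from its fold and p, and for an alternative chosen after seeing the data both were scaled to the background of the shallowest human library. Gene-body peaks were counted per 10000 peaks of the library in genes with at least 8 such peaks, tested with an exact permutation test of the share of variance between lines, and adjusted over all genes tested by the Benjamini-Hochberg method, as were the 10 elements. The test was also run on simulated counts of equal depth in all libraries, which does not cover division by unequal list lengths. Replicates were compared as numbered in the labels.

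Named in full were members open in 1 line or in none and the 10 with most gene-body peaks. The 12 line-specific regions with the best mean rank were also named, at most 2 per gene and 4 per line. Of the 25 members whose open start sites differed between lines, only some were described. Other windows, start-site sets, thresholds, list lengths, search lengths, single libraries left out, a replicate block and windows free of other genes' starts were tried. RefSeq promoters (GRCh38.p14) were matched by symbol for 40 members. Python 3.11.15 was used with numpy 2.4.6, pandas 2.3.3, scipy 1.17.1 and matplotlib 3.10.9.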

Additional observations from a re-analysis of the deposited data

How the results depend on the processing

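Peak lists limit what an absent peak means, since a closed site and a shallow library cannot be told apart, and HEK293T was shallowest. The members open in no human line numbered 5, and 2 with a 2 kb window or with at least 1 replicate. There were 3 to 5 with a library left out (3 without HFF1 replicate 1). With 50000 peaks per library or after the scaling, NR1H4 and NR0B2 were also open in none. So was NR0B2 at a -log10 q of at least 5. NR1I2 and NR2E1 were also open in none with canonical starts alone. The members open in 1 line alone numbered 2, and 1 at a -log10 q of at least 5 (NR1H4), 4 with 50000 peaks per library, 1 after scaling to the shallowest human library, and 2 to 3 with a library left out. Members whose share of gene-body peaks differed between lines numbered 10, and 0 with the number of peaks, 0 with 50000 peaks per library, 16 of 32 at a -log10 q of at least 5 (50.0%, beside 38.7% of genes) and 3 to 11 with a library left out; of all genes 2668 passed, and 0, 0 and 1498 to 2181 under the first, second and last of these settings. Among the elements, the following are adjusted p-values of the exact permutation test between human lines. The direct repeat with 1 base between, at 0.0190, had 0.0952 with a search of 100 bases either side of the summit, 0.179 with 50000 peaks and 0.0159 to 0.0571 with a library left out (0.0571 without either GM12878 replicate). The repeat with 4 between, at 0.0833 and highest in K562, had 0.0190 with the longer search, 0.0357 over all peaks, 0.0317 with 50000 peaks and 0.0159 to 0.119 with a library left out. It was highest in GM12878 with 50000 peaks and without K562 replicate 2 (0.0159). The hexamer after TCA, at 0.0816 and highest in GM12878, had 0.0476 with the longer search, 0.0272 over all peaks and 0.0238 to 0.218 with a library left out, and was highest in HEK293T with 50000 peaks (0.179). The steroid palindrome, at 0.0794 and highest in HFF1, was highest in K562 with the longer search (0.0952) and in GM12878 over all peaks (0.0190) and with 50000 peaks (0.413). The inverted repeat, at 0.657 and highest in GM12878, was highest in HEK293T without GM12878 replicate 2 (0.771) or HEK293T replicate 1 (0.254), and in HFF1 without HFF1 replicate 2 (0.543). With 50000 peaks the repeat with 5 between and the hexamer after T, both at 0.0190, had 0.0714 and 0.179. For gene bodies, the line with the highest value changed with the number of peaks for RORA (to HFF1, adjusted exact permutation p 0.0834), THRB (to HFF1, 0.0646), ESRRG (to HFF1, 0.0646) and RXRA (to GM12878, 0.163), and for RXRA also with 50000 peaks (to HFF1, 0.0867) and after the scaling (to GM12878, 0.0272). For mESC, promoter calls from canonical starts alone were not run.

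The replicate numbers did not pair the libraries: the correlation of replicate differences between lines over 8666 genes lay between 0.00382 and 0.0197. With a replicate block, whose smallest exact p is 0.0417, 0 members and 0 genes passed for gene-body peaks (13 members and 3224 genes at an unadjusted exact permutation p under 0.05), and the hexamer alone, its forms with AA or with T in front and the repeats with 1 and 5 bases between each had an adjusted p of 0.0833.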
